A study of Mus musculus with 20 samples.

Results

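Intronic sites are positions of A-to-I RNA editing that the study's list places inside introns, so reads over them come from RNA that still carried the intron, or from genomic DNA. The list held 48425 positions, and 28152 of them, in 6307 genes, were annotated as intronic. A site was kept when at least 50 reads covered it in both libraries of at least 1 of the 10 groups, whatever its editing level. This kept 1304 intronic sites in 47 genes, which is 4.63% of those listed and 14.4% of the 9065 covered sites of all annotations. Another 26599 intronic sites had no read in any library. Coverage in the better of the groups was 50 to 54 reads at 29 sites just inside the rule and 45 to 49 reads at 17 sites just outside it.

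The libraries came from 5 lines of mouse embryonic fibroblasts (MEFs), connective tissue cells grown from embryos, labelled ADAR1_WT, P150_KO, ADAR1_NULL, ADAR2_NULL and STAT2_NULL. Each line was left untreated or given interferon, and each of the 10 groups had 2 libraries, 20 in all. Chosen loci were amplified from total RNA by RT-PCR and sequenced, and every site carries its coverage and its number of edited reads. ADAR1_WT is called wild type here, though no label names it as the matched control of the other lines. The labels name neither the type nor the dose nor the duration of the interferon. No label says that a group's 2 libraries are from separate cultures, so the p-values measure only how far these libraries differ, which may be technical. Fibroblast identity could not be checked from these sites, which give editing levels and not gene expression.

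ADAR enzymes deaminate adenosines of paired RNA to inosine, and inosine is read as guanosine by reverse transcriptase. ADAR1 has a shorter form, p110, made at all times and found mainly in the nucleus, and a longer form, p150, made from an interferon-inducible promoter and found mainly in the cytoplasm. ADAR2, encoded by Adarb1, is mainly nuclear and edits several transcripts within or near coding sequence, often where an intron pairs with an exon. STAT2 carries the type I interferon signal to its target genes, p150 among them. Introns are removed in the nucleus, so an intronic site is open to an enzyme mostly before the RNA is spliced, whereas a site in a 3' untranslated region (3' UTR) stays with the RNA in the cytoplasm.

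The 1304 sites lay in short amplified stretches. A gene held 2 to 90 of them (median 29, with 90 in Taz and 2 in Ppil2), and the sites of a gene spanned under 250 bases in 42 of the 47 genes. Sites of 1 stretch share reads and are not independent of each other. Intronic sites took 581661 to 872687 reads per library, 13.3% to 16.2% of all coverage. In 18 libraries 993 to 1304 sites had at least 50 reads and the median coverage of a site was 223 to 377 reads. Replicate 1 of untreated ADAR1_NULL (741 sites, median 90 reads) and replicate 1 of interferon-treated P150_KO (778 sites, median 85 reads) were thinner. An observed 0% allows a true level of up to 6.0% at 50 reads, and of 0.796% to 3.53% at the median coverage of the deepest and the thinnest library. These limits and the intervals of counts cover counting error only, since PCR reads without molecular identifiers are not independent molecules. Reads of unspliced RNA and of genomic DNA cannot be told apart in these counts, because no label says whether DNA was removed. Coverage at Gria3 and Grik2 bears on the mixture, and it differed by gene and line. At Gria3 in the untreated STAT2_NULL libraries together, the coding position 39007390 had no read and the intronic position 39007442 had 844, against 1660 and 1430 in untreated wild type. At Grik2 the coding position 48964136 had 3 reads and the intronic position 48962294 had 1079 in untreated wild type. The same Grik2 positions had 3626 and 914 in untreated ADAR1_NULL, and 1934 and 948 in untreated STAT2_NULL. How far this affects intronic levels was not tested.

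Most intronic sites were hardly edited in any line. The level of a site, its edited reads as a percentage of its coverage, stayed under 1% in every covered group at 943 of the 1304 sites (72.3%). It reached at least 1% in some group at 361 sites, 5% at 62 sites in 28 genes, 10% at 31 sites in 19 genes and 25% at 10 sites. Interferon-treated wild type was the highest group at 31 of the 62 sites that reached 5%, interferon-treated ADAR2_NULL at 10 and interferon-treated STAT2_NULL at 6. The libraries of the highest group often disagreed. At 23 of these 62 sites the lower library had less than 1/3 of the level of the higher one, at 11 sites 0%, and at 30 sites at least 1/2 of it.

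By group, 13 of 977 covered sites (1.33%) were at or above 5% in untreated wild type and 39 of 949 (4.11%) in treated wild type. The untreated and treated counts were 6 of 1101 (0.545%) and 5 of 681 (0.734%) in P150_KO, and 0 of 741 and 0 of 1196 in ADAR1_NULL. They were 5 of 1182 (0.423%) and 29 of 1277 (2.27%) in ADAR2_NULL, and 19 of 1293 (1.47%) and 15 of 1267 (1.18%) in STAT2_NULL. The covered sites differed between groups, and those of Pwwp2a, for example, were not covered in wild type. Over the 538 sites covered in all 20 libraries, the mean level in wild type was 0.555% ± 0.0203 (SD, n = 2) untreated and 0.907% ± 0.0598 treated. ADAR2_NULL went from 0.426% ± 0.00174 to 0.575% ± 0.00809. P150_KO had 0.349% ± 0.0224 and 0.408% ± 0.0339, ADAR1_NULL 0.236% ± 0.0873 and 0.254% ± 0.0145, and STAT2_NULL 0.504% ± 0.00633 and 0.516% ± 0.0164. The ratio of treated to untreated means was 1.63 in wild type and 1.35 in ADAR2_NULL, and 1.02 to 1.17 in the other lines. The same ratio over the 2882 3' UTR sites covered in all libraries was 3.83 in wild type and 6.09 in ADAR2_NULL, and 1.02 to 1.21 elsewhere. With 2 libraries against 2 no exact test of these means can reach 0.05, so they are given without one.

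Interferon in wild type raised editing at 17 of 98 tested intronic sites (17.3%), in 9 of 24 genes, and lowered it at none. A site was tested when all 4 libraries had at least 50 reads and their mean level was at least 1%, and called when edgeR's quasi-likelihood test gave a Benjamini-Hochberg adjusted p under 0.05 over the sites of all annotations. Across all annotations 40.4% of tested sites were called as higher and 0.654% as lower, so the intronic share was below the background. The called sites lay in Specc1 (5), the transcript uc008ebf.1 (3), Adarb1 (2) and 2810422J05Rik (2), with 1 each in Fnbp1, Pigu, Taok3, Dusp11 and Taz. Their levels were 0% to 0.540% untreated (median 0.112%) and 2.001% to 21.7% treated (median 6.96%), so they were sites with almost no editing before interferon. Among all 98 tested sites the mean was higher with interferon at 78 and the median difference was 2.50 percentage points. In wild type 61 of 977 covered sites reached 1% untreated and 117 of 949 treated, so the minimum level favoured this direction. The count of calls fell to 7 without replicate 2 of untreated wild type, and to 1 when the spread was estimated from the 4 wild-type libraries alone. A minimum level of 5% left 4 calls, and 3 of the 17 calls were kept in each of the 4 fits that left out 1 library.

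**Figure D1:**
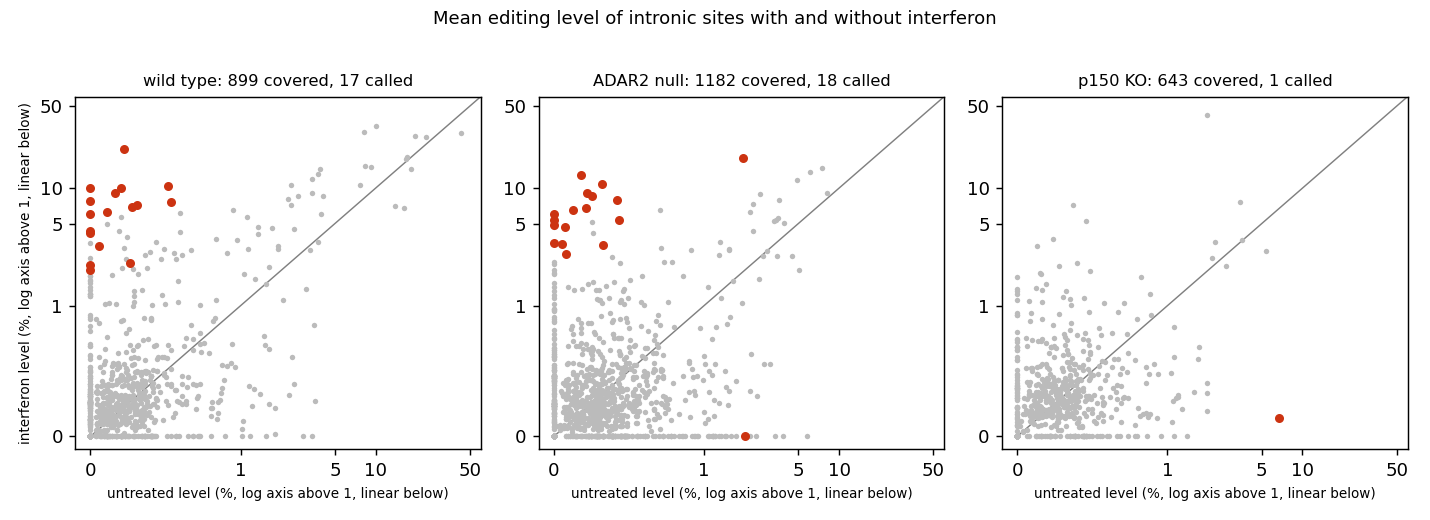
Mean editing level of each covered intronic site in untreated (x axis) and interferon-treated libraries (y axis), in percent on axes that are logarithmic above 1 and linear below, for ADAR1_WT, ADAR2_NULL and P150_KO. Red points are called by the edgeR test; they number 17 in wild type, 18 in ADAR2_NULL and 1 in P150_KO, and in the first 2 panels nearly all sit above the line of equal levels and close to 0% untreated.

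The greatest rise among the called sites was in Specc1, which encodes a coiled-coil protein related to cytospin. The site lies at chromosome 11, position 61954893, plus strand. Its level was 0.444% and 0% in the untreated wild-type libraries and 26.7% and 16.6% in the treated ones, a rise of 21.4 percentage points (SE 5.09, edgeR adjusted p = 0.00162), called in 4 of 4 fits that left out a library. The groups did not overlap. In ADAR1_NULL the same site stayed at 0% in both libraries (at most 0.524%) untreated and 0% and 0.765% treated, and in STAT2_NULL at 0.755% and 0.940% untreated and 0.298% and 0% treated. A second Specc1 site 19 bases on, position 61954912, was already edited without interferon, at 13.5% and 6.68%, and stood at 33.4% and 33.99% with it. Its rise, of 23.6 percentage points, was not called, although the groups did not overlap.

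Adarb1 showed the rise with the lowest adjusted p. At chromosome 10, position 76786776, minus strand, the wild-type levels were 0.155% and 0.1695% untreated and 6.88% and 11.2% treated, a rise of 8.89 percentage points (SE 2.18, edgeR adjusted p = 2.35e-05) that held in 4 of 4 fits with a library left out. The untreated libraries of every line were at or below 0.335% there. In Fnbp1, which encodes a membrane-curving F-BAR protein, the called site (chromosome 2, position 30885895, minus strand) had 0% in both libraries (at most 0.387%) untreated and 5.39% and 3.26% treated, a rise of 4.33 percentage points (SE 1.06, edgeR adjusted p = 0.00934).

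Pigu encodes a subunit of the GPI transamidase, which attaches lipid anchors to proteins; its site at chromosome 2, position 155106864, went from 0.379% and 0.241% to 8.96% and 5.40%, a difference of 6.87 percentage points (SE 1.78, edgeR adjusted p = 0.0176). Taz on chromosome X encodes tafazzin, a cardiolipin-remodelling enzyme; its site at 71531186 went from 0.406% and 0% to 11.2% and 8.84%, with 9.82 percentage points (SE 1.21, edgeR adjusted p = 0.0154). Dusp11 encodes a phosphatase that acts on RNA 5' ends. Its site at chromosome 6, position 85905359, had 0.552% and 0% untreated and 6.34% and 7.59% treated, a difference of 6.69 percentage points (SE 0.682, edgeR adjusted p = 0.0290) kept in only 1 of 4 fits. The treated libraries disagreed at Taok3 and 2810422J05Rik. Taok3, a protein kinase gene, had 2.87% and 12.8% treated and 0% in both libraries (at most 0.425%) untreated (edgeR adjusted p = 0.0258, kept in 1 of 4 fits). The 2810422J05Rik gene, now named Kxd1, had 17.9% and 2.25% treated and 0% in both libraries (at most 0.185%) untreated (edgeR adjusted p = 0.0209, kept in 2 of 4 fits).

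Sites that were well edited without interferon showed no call. On simulated data the test recovered 6% of changes at an odds ratio of 2 and 38% at 4. The absence of calls therefore does not show that these sites did not change. Of the 13 sites, in 10 genes, at or above 5% in untreated wild type, 9 had a higher mean with interferon and edgeR called 0, as did limma, with 0 at an unadjusted p under 0.05; the differences ran from -13.7 to 23.6 percentage points. Their median level was 16.2% untreated and 17.7% treated. The Fnbp1 site at 30885904 had 23.8% and 23.1% untreated and 28.8% and 26.1% treated. S100pbp, whose product binds the calcium-binding protein S100P, had 16.1% and 22.98% untreated and 25.7% and 29.3% treated at chromosome 4, position 128858467. Nsun5, an rRNA cytosine methyltransferase gene, had 12.3% and 19.96% untreated and 2.85% and 10.6% treated at chromosome 5, position 135849673, and the groups did not overlap. Ankrd40, which encodes an ankyrin-repeat protein, had 8.47% and 6.97% untreated and 17.5% and 3.75% treated at chromosome 11, position 94194943. These are the sites with the highest untreated levels, chosen on 1 side of the comparison, so their differences are a description.

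**Figure D2:**
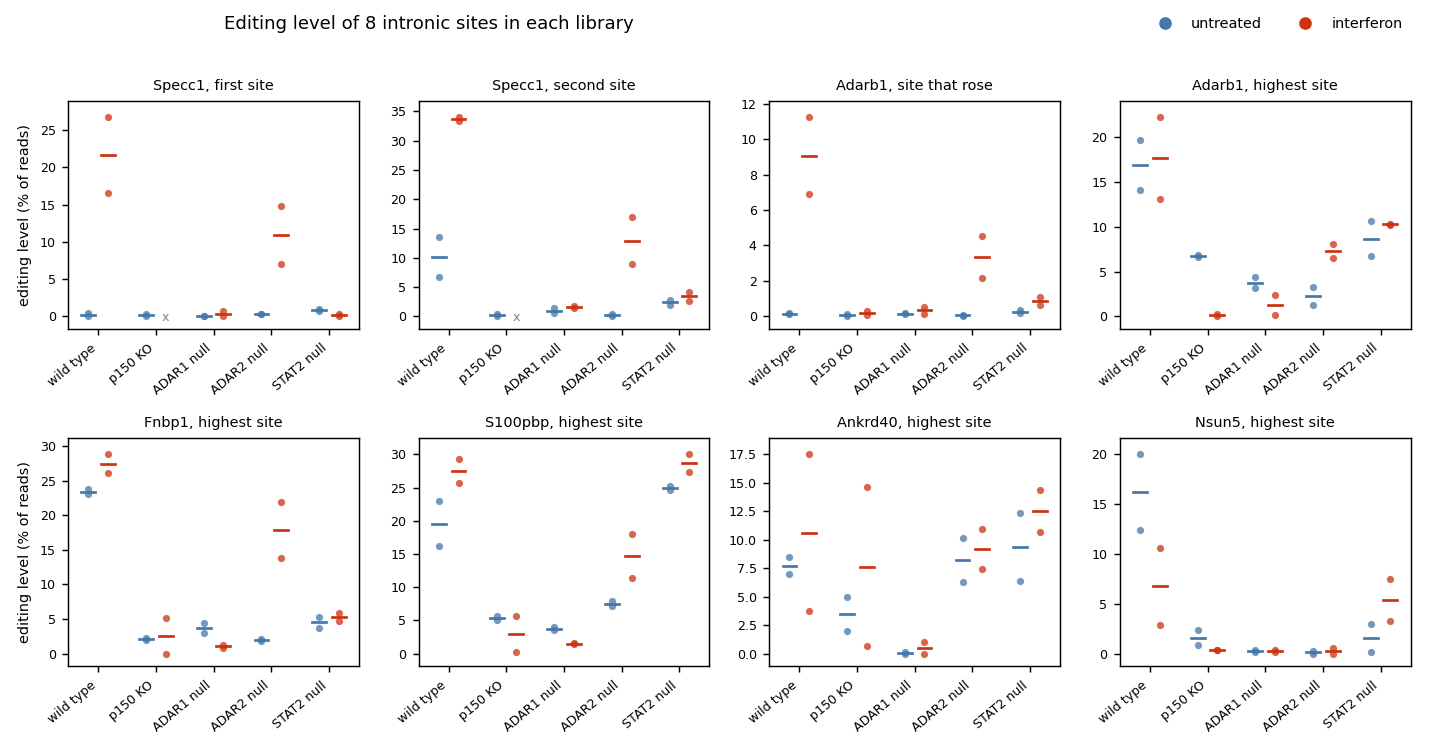
Editing level in percent (y axis) of 8 intronic sites in Specc1, Adarb1, Fnbp1, S100pbp, Ankrd40 and Nsun5, in the 5 lines untreated (blue) and with interferon (red). Dots are single libraries and bars the mean of 2 libraries. A cross marks a group in which a library had under 50 reads, and neither library of that group is drawn. The first Specc1 and first Adarb1 sites are near 0% in every untreated group and rise in treated wild type and treated ADAR2_NULL, while S100pbp runs from 24.6% to 30.02% in STAT2_NULL and from 16.1% to 29.3% in wild type.

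Without ADAR2, interferon still raised intronic editing. In ADAR2_NULL, 17 of 75 tested sites rose and 1 fell, in 8 genes, against a background of 52.2% called as higher and 0.0873% as lower. The 17 sites went from 0% to 1.95% untreated to 2.74% to 17.9% treated. All 3 calls kept in each of the 4 fits that left out a library were in Specc1. There, position 61954912 went from 0% and 0.365% to 8.87% and 17.01%, a rise of 12.8 percentage points (SE 4.07, edgeR adjusted p = 0.000858) and position 61954893 went from 0.283% and 0.361% to 7.07% and 14.8%, a rise of 10.6 percentage points (SE 3.85, edgeR adjusted p = 0.00706). The greatest rise was in Fnbp1 at 30885904, from 2.12% and 1.79% to 13.9% and 21.9%, which was 15.9 percentage points (SE 4.01, edgeR adjusted p = 0.0220) and kept in 1 of 4 fits. Adarb1 at 76786776 went from 0.0701% and 0.0388% to 2.16% and 4.53% (edgeR adjusted p = 8.53e-06). The rises in the wild-type and ADAR2_NULL lines shared 6 sites, 35.3% of either list of 17, in Specc1, uc008ebf.1 and Adarb1. The difference in response between these 2 lines was not tested. The count of calls fell to 10 without replicate 2 of treated ADAR2_NULL and to 6 without replicate 2 of untreated ADAR2_NULL, and a minimum level of 5% left 3.

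Further rises in ADAR2_NULL were in Gtf2a2, which encodes the small subunit of the transcription factor TFIIA, in Ivd, an isovaleryl-CoA dehydrogenase gene, and in Airn, a noncoding RNA antisense to Igf2r. Each was at 0% in both untreated libraries (at most 0.274%, 0.792% and 0.746%), and the treated libraries were uneven. Gtf2a2 at 69863639 had 1.69% and 5.16% treated, Ivd at 118695631 had 0.840% and 8.82%, and Airn at 13012008 had 10.8% and 1.33%. The differences were 3.43, 4.83 and 6.08 percentage points and rested largely on 1 treated library each.

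In the lines labelled as lacking p150, ADAR1 or STAT2, 1, 0 and 0 intronic sites were called with interferon. In P150_KO, 24 sites were tested and 1 was called, as lower, against a background of 1.65% lower and 0% higher. That site, Adarb1 76786805, had 6.86% and 6.63% untreated and 0.0523% and 0.229% treated, a difference of -6.61 percentage points (SE 0.143, edgeR adjusted p = 0.0123). The P150_KO count was 2 without replicate 1 of treated P150_KO (1 higher, 1 lower), 9 without replicate 2 (6 higher, 3 lower), and 0 without either untreated library, so the direction of the calls turned with the library left out. It was also 0 with a 5% minimum level and with the spread taken from these 4 libraries alone. In ADAR1_NULL, 15 sites were tested and edgeR called 0, with a background of 0%; limma also called 0, and 2 sites had an unadjusted p under 0.05. Without replicate 1 of treated ADAR1_NULL, 1 was called. In STAT2_NULL, 85 sites were tested and edgeR called 0, with a background of 0% and 3 sites with an unadjusted p under 0.05; limma called 0, and dropping the minimum level gave 1. In STAT2_NULL 45 of the 85 had a higher and 40 a lower mean with interferon.

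The 17 sites that rose in wild type were followed in the other lines as a description, since wild type chose them. In treated P150_KO, 9 of them were covered, at 0% to 0.514% (median 0.195%). The other 8 had at most 10 reads in replicate 1 and 182 to 1147 reads in replicate 2, where their levels were 0% to 0.461%. The median of the 17 was 0.121% in treated ADAR1_NULL, 0.586% in treated STAT2_NULL against 0.352% untreated, and 2.64% in treated ADAR2_NULL against 0.325% untreated.

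The p150 knockout was compared with wild type to ask which intronic editing differs where that form is missing. Without interferon, 9 of 48 tested sites (18.8%), in 6 of 22 genes, were lower in P150_KO and none was higher, against a background of 32.5% lower and 0.580% higher. Across the 48 the mean was lower in P150_KO at 41, with a median difference of -2.84 percentage points. Sites could pass the 1% minimum through either group. Untreated, 51 of 1101 covered sites reached 1% in P150_KO and 61 of 977 in wild type, and 6 and 13 reached 5%. The minimum thus leaned towards sites high in wild type, and its part in this direction was not tested. At Specc1 61954912 the P150_KO libraries had 0.425% and 0%, a difference of -9.86 percentage points (SE 3.40, edgeR adjusted p = 0.00457) from wild type, kept in 4 of 4 fits. Fnbp1 30885904 had 2.29% and 1.98%, a difference of -21.3 percentage points (SE 0.362, edgeR adjusted p = 0.0160). Nsun5 had 2.31% and 0.825%, a difference of -14.6 percentage points (SE 3.88, edgeR adjusted p = 0.0384). Pdcd2, which takes part in ribosome assembly, had 0.729% and 0.273% against 4.21% and 3.28% at chromosome 17, position 15659249, a difference of -3.25 percentage points (SE 0.519, edgeR adjusted p = 0.00647). The Adarb1 site at 76786829 had 0.410% and 0.101% against 4.81% and 3.38%, a difference of -3.84 percentage points (SE 0.735, edgeR adjusted p = 0.00768). Lower levels at these named sites were not particular to P150_KO. In untreated ADAR2_NULL and STAT2_NULL the means were 0.1825% and 2.38% at Specc1 61954912, and 1.95% and 4.51% at Fnbp1 30885904. They were 0.1345% and 1.575% at Nsun5, 0.899% and 0.905% at Pdcd2, and 1.315% and 2.49% at Adarb1 76786829, all below untreated wild type. The Fnbp1 call was kept in 2 of 4 fits and the Nsun5 call in 1 of 4. The count was 4 without replicate 1 and 2 without replicate 2 of untreated P150_KO, and 3 with the spread of these 4 libraries alone.

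S100pbp and Ankrd40 had lower means in untreated P150_KO without a call. S100pbp had 5.12% and 5.60% in P150_KO, with groups that did not overlap, a difference of -14.2 percentage points (edgeR adjusted p = 0.111). Ankrd40 had 1.94% and 4.99%, a difference of -4.26 (edgeR adjusted p = 0.424).

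With interferon, of 64 tested sites in 18 genes, 30 (46.9%) were lower in P150_KO and 1 was higher, in 13 genes, against a background of 63.9% lower and 0.577% higher. The greatest gap was at an intronic site of the glutamate receptor gene Gria3 (chromosome X, position 39007465), with 24.7% and 35.5% in wild type and 0.155% and 4.18% in P150_KO, a difference of -27.9 percentage points (SE 5.79, edgeR adjusted p = 0.00287). Fnbp1 30885904 followed, with 0% and 5.11% in P150_KO, a difference of -24.9 percentage points (SE 2.89, edgeR adjusted p = 0.00415). S100pbp 128858467 had 0.202% and 5.63%, a difference of -24.6 percentage points (SE 3.24, edgeR adjusted p = 0.00229). Both Adarb1 sites were lower too. The difference was -17.5 percentage points (SE 4.59, edgeR adjusted p = 1.03e-05) at 76786805 and -8.86 percentage points (SE 2.18, edgeR adjusted p = 7.10e-06) at 76786776. These 5 calls were kept in all 4 fits with a library left out, as were 13 of the 31 calls.

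Smaller gaps were called at the named sites of Pigu, Zkscan3, Taz, Dusp11, Nsun5 and Pdcd2. Zkscan3, which encodes a zinc-finger repressor of autophagy genes, had a difference of -7.96 percentage points (SE 3.04, edgeR adjusted p = 0.0105) at position 21481802. Pdcd2 had a difference of -3.31 percentage points (SE 1.81, edgeR adjusted p = 0.000226). The 1 higher site lay in Ifnar1, which encodes a chain of the type I interferon receptor, at position 91490967, with 2.73% and 1.19% in P150_KO and 0.343% and 0% in wild type, a difference of 1.79 percentage points (SE 0.790, edgeR adjusted p = 0.0305) kept in 2 of 4 fits. Without the thin replicate 1 of treated P150_KO, 29 of 102 tested sites were called, 1 as higher and 28 as lower, and without replicate 2 it was 26 of 74, 6 as higher and 20 as lower. With the spread of these 4 libraries alone the count was 13, and with a 5% minimum level it was 9 of 11.

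Whether the response itself differed was tested as an interaction, the interferon effect in P150_KO minus that in wild type. Of 56 tested sites, 2 were called (3.57%), both lower in P150_KO and both in Adarb1, 29 bases apart, against a background of 17.2% lower and 0% higher. At 76786776 the difference between responses was -8.79 percentage points (edgeR adjusted p = 0.00769), kept in 7 of 8 fits and lost without replicate 1 of untreated P150_KO. The P150_KO levels there were 0.142% and 0.0339% untreated and 0.105% and 0.286% treated. At 76786805 it was -7.34 points (edgeR adjusted p = 0.00718), kept in 8 of 8 fits. There wild type had 14.1% and 19.7% untreated and 13.1% and 22.2% treated. Of the 17 sites that rose in wild type 7 could be tested, with differences of -11.4 to -4.70 percentage points, and 1 was called; since a rise in wild type chose them, their common direction supports nothing. The count was 6 without replicate 2 of treated P150_KO, 1 without replicate 1 of untreated P150_KO, 1 with the spread of these 8 libraries alone and 9 with limma.

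The ADAR1_NULL line, labelled as null for ADAR1, had lower intronic editing than wild type at every called site. Without interferon 12 of 30 tested sites, in 9 of 15 genes, were lower and none higher, against a background of 49.0% lower and 0.259% higher. With interferon 51 of 93 (54.8%), in 19 of 25 genes, were lower and none higher, against a background of 69.5% lower and 0% higher. The mean was lower in ADAR1_NULL at 29 of the 30 and 88 of the 93 tested sites. A tested site needed a mean of at least 1% over the libraries compared. In ADAR1_NULL only 17 of 741 covered sites untreated and 36 of 1196 treated reached 1%. Many sites thus entered through wild type, so the minimum favoured this direction and the 2 counts support nothing. The highest intronic mean of ADAR1_NULL was 3.77% untreated (741 covered sites) and 2.51% treated, whereas wild type reached 43.2% (977 covered sites) and 33.7%. The 43.2% site, Flna 71471989, was not among the sites covered in untreated ADAR1_NULL. Its libraries there had 19.4%, over 36 reads, and 0.885%. At Fnbp1 30885904, covered in both groups, the untreated means were 3.67% in ADAR1_NULL and 23.45% in wild type. Untreated, Nsun5 had 0.127% and 0.401% in ADAR1_NULL, a difference of -15.9 percentage points (SE 3.81, edgeR adjusted p = 0.00188), and Pdcd2 had 0.129% and 0.448%, a difference of -3.46 percentage points (SE 0.493, edgeR adjusted p = 0.000539). Both held in all 4 fits. Ankrd40 had 0% and 0.140%, a difference of -7.65 percentage points (SE 0.756, edgeR adjusted p = 0.00557). Fnbp1 30885904 had 2.93% and 4.41%, a difference of -19.8 percentage points (SE 0.809, edgeR adjusted p = 0.0229), but kept in 1 of 4 fits. The untreated count was 7 of 50 tested without the thin replicate 1 of ADAR1_NULL, and 7 with the spread of these 4 libraries alone.

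With interferon, wide gaps to ADAR1_NULL were called at Specc1, Gria3, S100pbp and Gtf2a2. Specc1 61954912 had 1.42% and 1.80% in ADAR1_NULL, a difference of -32.1 percentage points (SE 0.339, edgeR adjusted p = 0.00109). Gria3 39007465 had 0.193% and 0%, a difference of -30 percentage points (SE 5.43, edgeR adjusted p = 0.000155). S100pbp 128858467 had 1.51% and 1.37%, a difference of -26.1 percentage points (SE 1.77, edgeR adjusted p = 0.00121). Gtf2a2 at 69863626 had 0.145% and 0.152% against 17.9% and 11.4%, a difference of -14.5 percentage points (SE 3.25, edgeR adjusted p = 0.000858). All 4 held in every fit that left out a library, as did 22 of the 51 calls. A 5% minimum level left 19 calls of 20 tested. No covered site of treated ADAR1_NULL reached 5%, so every site of that set entered through wild type. For Inpp5j, an inositol phosphatase gene, the called difference of -32.1 points rested on 1 wild-type library, with 0% and 64.2% in the pair.

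P150_KO, in which the labels name only the p150 form as missing, was also set against ADAR1_NULL. Few sites had enough editing to be tested. Untreated, 1 of 14 was called as higher in P150_KO, against a background of 9.21% higher and 2.63% lower. It was Gria3 39007465, with 3.49% and 1.90% in P150_KO and 0% in both libraries (at most 0.237%) in ADAR1_NULL, a difference of 2.69 percentage points (SE 0.794, edgeR adjusted p = 0.0210). With interferon 1 of 23 was called as higher, against a background of 6.09% higher and 1.02% lower, at the intronic site of Flna, with 62.9% and 20.3% in P150_KO and 0% and 2.53% in ADAR1_NULL, a difference of 40.3 percentage points (SE 21.3, edgeR adjusted p = 0.0439). Each of the calls held in 1 of 4 fits. Untreated, the count was 0 without replicate 1 of P150_KO or without either ADAR1_NULL library. With interferon it was 6 and 12 without replicate 1 or 2 of P150_KO, and 0 without either ADAR1_NULL library. Both counts were 0 with the spread of the compared libraries alone and 2 with limma. S100pbp had 5.12% and 5.60% in untreated P150_KO and 3.47% and 4.01% in untreated ADAR1_NULL, and Adarb1 76786805 6.86% and 6.63% and 4.38% and 3.15%; neither difference was called.

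Calls against wild type were also made in ADAR2_NULL. Untreated, 8 of 62 tested sites (12.9%), in 6 genes, were lower and none higher, against a background of 12.9% lower and 0.680% higher. The mean was higher in ADAR2_NULL at 23 of these sites and lower at 39. Nsun5 had 0.269% and 0% in ADAR2_NULL, a difference of -16.02 percentage points (SE 3.81, edgeR adjusted p = 0.00876). Fnbp1 30885904 had 2.12% and 1.79%, a difference of -21.5 percentage points (SE 0.367, edgeR adjusted p = 0.0338). Specc1 61954912 had 0% and 0.365%, a difference of -9.89 percentage points (SE 3.40, edgeR adjusted p = 0.00876). Adarb1 76786805, in the pre-mRNA of ADAR2 itself, had 3.26% and 1.32%, a difference of -14.6 percentage points (SE 2.98, edgeR adjusted p = 0.0363). Ppp1r12b, a myosin phosphatase subunit gene, had 0% in both libraries (at most 0.679%) against 20.1% and 7.54% at chromosome 1, position 136676115, a difference of -13.8 percentage points (SE 6.27, edgeR adjusted p = 0.0195). None of the 8 calls held in all 4 fits. The count was 5 without replicate 1 and 1 without replicate 2 of untreated ADAR2_NULL, 5 without replicate 2 of untreated wild type, and 0 with the spread of these libraries alone.

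With interferon 2 of 106 tested sites (1.89%) were lower in ADAR2_NULL, against a background of 1.56% lower and 0.445% higher. They were an intronic site of Flna, which encodes filamin A, and Gria3 39007467, with 0% in both libraries (at most 0.292%) in ADAR2_NULL and 4.30% and 3.10% in wild type, a difference of -3.70 percentage points (SE 0.603, edgeR adjusted p = 0.0357). The count was 0 without either treated ADAR2_NULL library, 9 without replicate 1 of treated wild type, 6 with limma, 1 with a 5% minimum level and 0 with the spread of these libraries alone. At the highest sites ADAR2_NULL reached a part of the wild-type level. Fnbp1 30885904 had 13.9% and 21.9%, S100pbp 11.4% and 18.1%. Ankrd40 had 10.9% and 7.41%, inside the range of the treated wild-type libraries.

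STAT2_NULL was not tested against wild type, and its levels are given as values. Its S100pbp site had 24.6% and 25.2% untreated and 27.3% and 30.02% treated, above both untreated wild-type libraries. Ankrd40 had 6.37% and 12.4% untreated and 10.7% and 14.3% treated. Fnbp1 30885904 had 5.33% and 3.69% untreated and 5.86% and 4.72% treated, and Nsun5 2.96% and 0.193% untreated and 7.45% and 3.22% treated. At Specc1 61954912 the levels were 1.91% and 2.85% untreated and 4.24% and 2.66% treated. STAT2_NULL was thus above untreated wild type at S100pbp and below it at Fnbp1, Nsun5 and Specc1.

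Editing within a stretch was uneven. Fnbp1 had 6 sites called in some comparison within 25 bases, Specc1 7 within 56 bases and Adarb1 7 within 65 bases. S100pbp had 4 within 44 bases and Gtf2a2 5 within 31 bases. These sites share reads, so calls in 1 stretch are not separate observations. In Fnbp1 the wild-type levels at 30885884 were 15.2% and 18.8% untreated and 22.8% and 13.9% treated, and at 30885890 3.03% and 1.73% untreated and 13.5% and 7.99% treated. The 10 sites with the most edited reads held 48.4% of all edited intronic reads in untreated and 46.1% in treated wild type, and 23.2% and 17.9% in P150_KO. These shares depend on read depth as well as on level, and the covered sites differed between the groups. In untreated wild type Adarb1 76786805 gave 2306 edited of 13530 reads (mean 16.9%), and Flna 71471989 gave 160 of 371 (mean 43.2%).

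**Figure D3:**
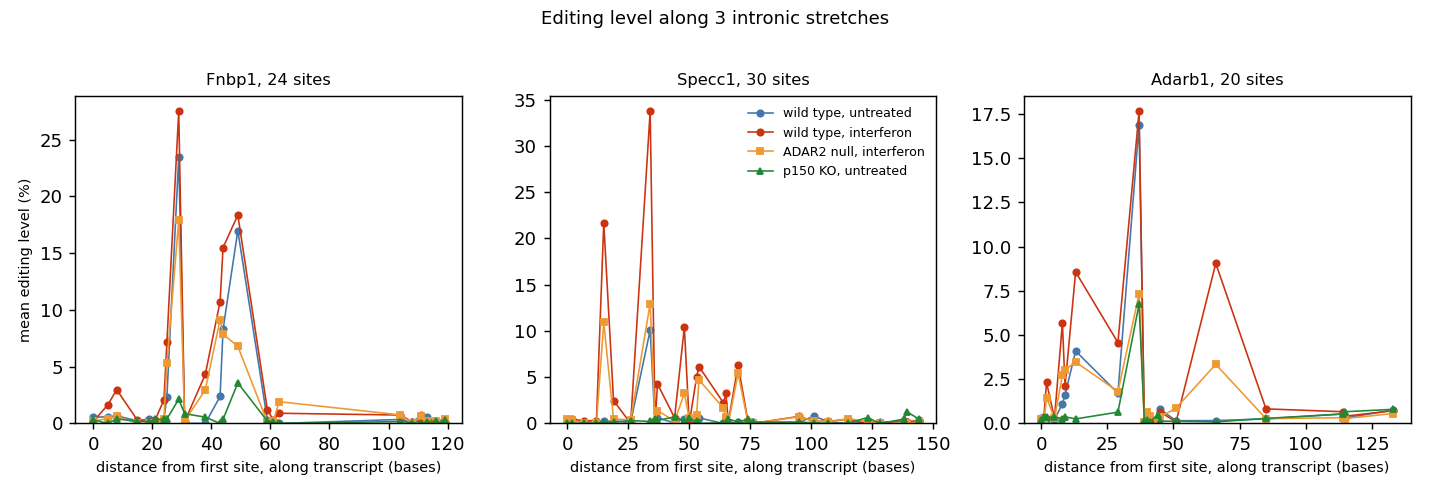
Mean editing level in percent (y axis) of every covered intronic site of Fnbp1 (24 sites), Specc1 (30 sites) and Adarb1 (20 sites) against the distance in bases from the first site along the transcript (x axis), in untreated and treated ADAR1_WT, treated ADAR2_NULL and untreated P150_KO; each point is the mean of 2 libraries. In treated wild type a few neighbouring sites stand above the rest of each stretch. At Adarb1 76786805, the site highest in treated wild type there (17.6%), untreated P150_KO is at 6.75%.

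Gria3 and Flna carry an intronic site beside a known coding site of ADAR editing. Gria3 encodes the AMPA receptor subunit GluA3, in which editing changes an arginine codon to glycine. Flna encodes filamin A, an actin crosslinker, in which it changes glutamine to arginine. In Gria3 the intronic site lies 36 bases from the coding site at 39007429. The intronic wild-type levels were 10.2% and 6.16% untreated and 24.7% and 35.5% treated, and although these did not overlap, the rise of 21.9 percentage points was not called (edgeR adjusted p = 0.123). The coding site had 32.4% and 34.2% untreated and 32.1% and 36.2% treated in the same libraries. In P150_KO the coding site had 7.97% and 7.76% untreated and 15.8% and 1.70% treated, and in ADAR1_NULL 2.75% and 0.467% untreated and 0% and 0.338% treated. Coverage of the coding site was 3088 reads in untreated wild type and 844 in untreated STAT2_NULL, so in the latter it equalled that of the intron, and the level there was 0% in both libraries (at most 0.355%). Its gap to wild type was called in ADAR1_NULL, -31.7 points untreated (edgeR adjusted p = 0.00647) and -34.0 treated (edgeR adjusted p = 0.000218). In P150_KO it was -25.4 points both untreated, where it was not called (edgeR adjusted p = 0.131), and treated (edgeR adjusted p = 0.0499). In ADAR2_NULL it was -28.7 points untreated (edgeR adjusted p = 0.0706) and -26.9 treated (edgeR adjusted p = 0.334), and was not called.

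The Flna intronic site (chromosome X, position 71471989, minus strand) lies 212 bases from the coding site at 71472201, and its libraries were uneven. Wild type had 44.2% and 42.2% untreated and 14.1% and 44.9% treated. P150_KO had 2.15% and 1.77% untreated and 62.9% and 20.3% treated, and ADAR2_NULL 0% and 0.971% untreated and 0% in both libraries (at most 0.489%) treated. Untreated, the difference from wild type was -41.2 percentage points (SE 1.005, edgeR adjusted p = 0.0189) in P150_KO and -42.7 percentage points (SE 1.10, edgeR adjusted p = 0.0163) in ADAR2_NULL. With interferon it was -29.5 percentage points (SE 15.4, edgeR adjusted p = 0.0192) in ADAR2_NULL and -28.2 percentage points (SE 15.5, edgeR adjusted p = 0.00897) in ADAR1_NULL. Each of the calls was lost in 1 or 2 of the 4 fits with a library left out. The coding site had 7.77% and 10.3% in untreated wild type and 1.19% and 0% in untreated P150_KO, a gap of -8.44 points (edgeR adjusted p = 0.0363). In treated P150_KO, where the intronic site was high, the coding site had 0.286% and 1.89%.

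**Figure D4:**
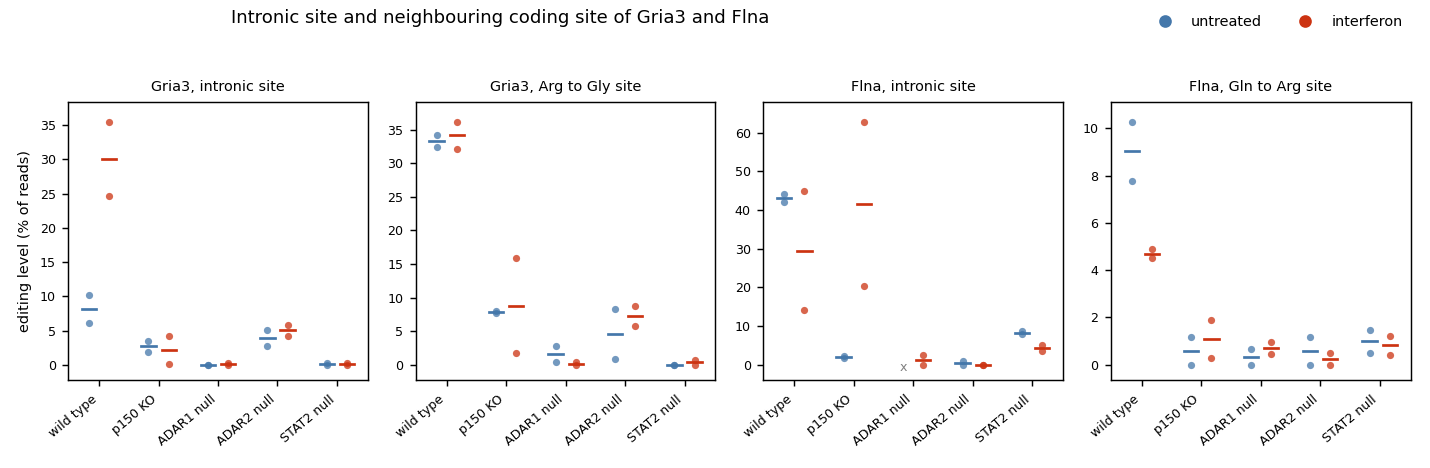
Editing level in percent (y axis) of the intronic site and the coding site of Gria3 and of Flna in the 5 lines, untreated (blue) and with interferon (red), with a dot for each library and a bar for the mean of 2. A cross marks a group in which a library had under 50 reads, and neither library of that group is drawn. The coding site of Gria3 sits between 32.1% and 36.2% in all 4 wild-type libraries while its intronic site runs from 6.16% to 35.5%, and the Flna intronic site differs most between the 2 libraries of treated P150_KO and of treated wild type.

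Gene lists set the members in context. Of 22 genes known as ADAR2 targets, 5 had intronic members (Adarb1, Flna, Gria3, Grik2 and Unc80), 89 in all. In wild type 2 of 12 tested members of that list rose with interferon and 0 fell, where 40.4% of all tested sites were called as higher. The median difference was 2.79 percentage points, against 2.50 over tested intronic sites and 5.27 over all tested sites of every annotation. In ADAR2_NULL 1 of 8 rose (median 1.46 against 1.93 and 4.78), where 52.2% of all tested sites were called as higher. Against untreated wild type, 2 of 5 were lower in P150_KO (median -5.50 against -2.84 and -3.25). In untreated ADAR1_NULL 3 of 3 were lower (median -8.19 against -3.43 and -4.04), and in untreated ADAR2_NULL 2 of 8 (median -1.95 against -1.045 and -2.30). The shares of all tested sites called lower in these untreated comparisons were 32.5%, 49.0% and 12.9%. With interferon, 9 of 12 were lower in P150_KO (median -4.06 against -3.30 and -6.14). In treated ADAR1_NULL 11 of 13 were lower (median -4.35 against -4.12 and -7.06), and in treated ADAR2_NULL 2 of 12 (median -3.88 against -2.24 and -1.88). The shares of all tested sites called lower in these treated comparisons were 63.9%, 69.5% and 1.56%. None of these comparisons with wild type had a member of the list called as higher. The 12 members tested in treated P150_KO lay in 3 genes, the 13 in treated ADAR1_NULL in 4 and the 3 in untreated ADAR1_NULL in 2. Members of 1 gene share reads, so these counts are not of independent sites. Of 16 genes of interferon signalling and dsRNA sensing only Ifnar1 had members, 66 of them, and of its 6 tested in wild type none was called with interferon. The 6 genes listed as ADAR1 targets and the 28 splicing factors and nuclear RNA-binding proteins had no member.

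**Figure D5:**
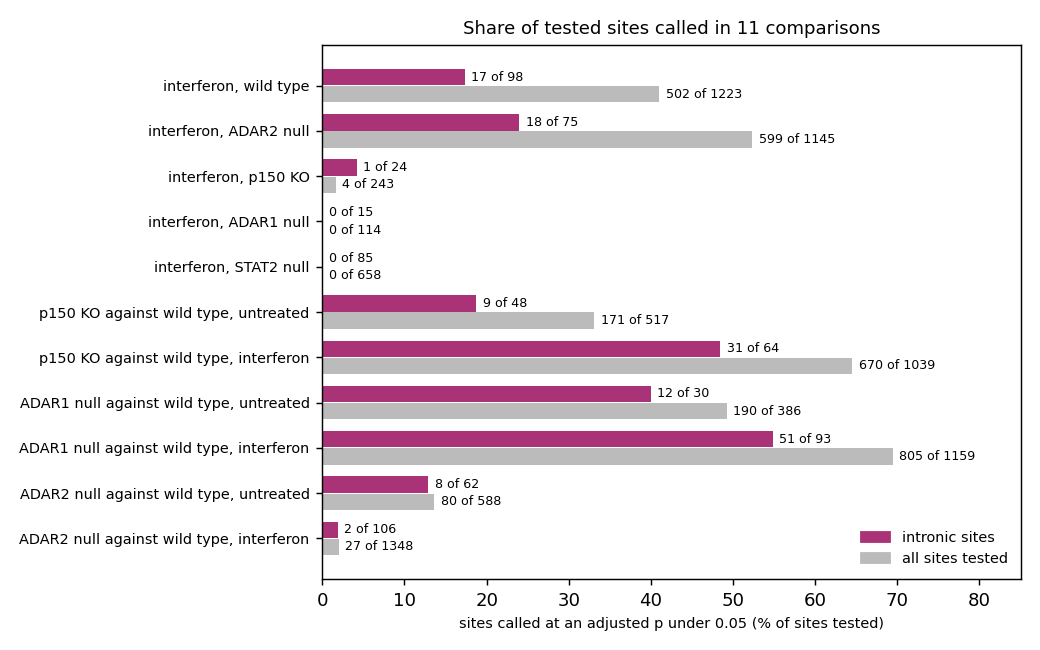
Percentage of tested sites called by the edgeR test (x axis) among intronic sites and among sites of all annotations, for 11 comparisons (y axis). The intronic bar is 17.3% against 41.0% for interferon in wild type and 54.8% against 69.5% for treated ADAR1_NULL against treated wild type.

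Some of the highest means rested on libraries that disagreed. Ivd at 118695677 had 0% and 36.7% in untreated wild type, 3.39% and 25.7% in treated wild type, 16.6% and 27.1% in untreated and 14.96% and 23.4% in treated STAT2_NULL. Arhgap18 had 10.96% and 59.5% at 26509550 in untreated P150_KO, the highest mean of that group. Airn at 13011967 had 17.9% and 0% in untreated P150_KO. None of these 3 sites was called in any comparison in which it was tested.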

How the data were processed

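The authors deposited 1 table per library, with coverage and edited reads (counts of reads per site) and, per the file headers, the editing level as a fraction; edited reads over coverage gave that deposited fraction to within 0.0005. The submitters' processing notes name BWA, SAMtools and the mm9 genome build, with versions not given in the sources used here, and the labels' protocols give pooled PCR products barcoded in 15 cycles, without unique molecular identifiers. The design text speaks of 557 loci and 6 lines; the remaining line is not analysed here. Whether positions count from 0 or 1 is not stated, and they are printed as the files give them. No genome of that build was used here, so no sequence is shown.

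Edited and unedited counts of all sites and all 20 libraries were fitted together in edgeR 4.0.16 (quasi-likelihood, 1 coefficient per group), run in R 4.3.3, for 14 comparisons. Sites with at least 50 reads in every library compared and a mean level there of at least 1% were tested, and p-values were adjusted by Benjamini-Hochberg over all annotations. Differences in percentage points are of mean library levels, with an SE from the library SDs. limma 3.58.1 on log2((edited + 0.5) / (unedited + 0.5)), other minimums and leaving out libraries were alternatives. On simulated data for interferon in wild type (1223 sites), 6%, 38%, 64% and 74% of changed sites were recovered at odds ratios of 2, 4, 8 and 16, and 2 of 1023 unchanged sites were called. The simulation gave all libraries the same fixed spread and the other lines the wild-type levels. The real groups differed in both, so these shares need not hold for the real data. The limit for an observed 0 is 3 reads over the coverage, summed over both libraries where both had 0%. Libraries of a group differed by more than sampling noise in every group (chi-square per degree of freedom 3.25 to 13.1). None was therefore merged in the tests. The limits from summed coverage leave this difference out, so they are tighter than the libraries allow.

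The sites and gene lists were chosen with earlier results of these data known. Named sites are, per comparison, the called site with the greatest difference in up to 12 genes a direction with groups that do not overlap, and the highest site in each of the top 10 genes of untreated wild type, untreated P150_KO and treated wild type, with the best covered site of listed genes. Other sites of Fnbp1, Specc1 and Adarb1, and Gria3 39007467, were named after their values were seen. Of the 47 gene names, 40 matched a RefSeq symbol, 4 a synonym and 3 neither. The site that fell with interferon in ADAR2_NULL is not reported here by name.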

Additional observations from a re-analysis of the deposited data

Results flagged for a closer look

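Both intronic sites of Adarb1 whose interferon response differed between P150_KO and wild type by a test of the difference itself stand out. At position 76786776 the response in P150_KO was -8.79 percentage points relative to wild type (edgeR adjusted p = 0.00769), where wild type went from a mean of 0.162% to 9.05% and P150_KO from 0.0882% to 0.195%. At position 76786805 it was -7.34 percentage points (edgeR adjusted p = 0.00718), where wild type went from 16.9% to 17.6% and P150_KO from 6.75% to 0.141%. At the first site the wild-type level moved, and at the second the P150_KO level did.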

How the results depend on the processing

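Counts of called intronic sites moved by over 1.5 times as follows. With a mean level of at least 5%, interferon gave 4 in wild type, 0 in P150_KO and 3 in ADAR2_NULL; the treated lines against treated wild type gave 9 in P150_KO, 19 in ADAR1_NULL and 1 in ADAR2_NULL, and untreated P150_KO against ADAR1_NULL gave 0. For interferon in ADAR1_NULL no site reached that level. With the spread of only the libraries compared, interferon gave 1 in wild type and 0 in P150_KO; against wild type the counts were 3 and 13 in P150_KO (untreated and treated), 7 in untreated ADAR1_NULL and 0 in ADAR2_NULL both untreated and treated; P150_KO against ADAR1_NULL gave 0 and 0, and the interaction 1. limma gave 6 for treated ADAR2_NULL against wild type, 2 and 2 for P150_KO against ADAR1_NULL and 9 for the interaction. With no minimum level, STAT2_NULL gave 1, untreated P150_KO against ADAR1_NULL 0 and the interaction 5, and with 100 reads the interaction gave 6. A mean of at least 1% over all 20 libraries, chosen after seeing the data, gave 1, 0, 0 and 6 for treated ADAR2_NULL against wild type, both P150_KO against ADAR1_NULL comparisons and the interaction.

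With 1 library left out (the lone library taken to vary like the other groups), the counts ran from 7 to 22 for interferon in wild type, 0 to 9 in P150_KO, 0 to 1 in ADAR1_NULL, 6 to 19 in ADAR2_NULL and 0 to 0 in STAT2_NULL. Against wild type they ran from 2 to 13 and 26 to 34 in P150_KO, 7 to 13 and 34 to 53 in ADAR1_NULL, and 1 to 8 and 0 to 9 in ADAR2_NULL. P150_KO against ADAR1_NULL gave 0 to 1 and 0 to 12, and the interaction 1 to 6. No named site changed direction under any alternative run; 89 of 265 leave-one-out checks and 62 of 513 others lost the call.

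Same-numbered libraries did not deviate together (correlations -0.119 to 0.158 over the comparisons), so the numbers are not taken as pairs. A replicate block gave 17 calls for interferon in wild type, as without it, and changed 1 count by over 1.5 times, that of treated P150_KO against ADAR1_NULL, to 0. In simulation 6% of changes at an odds ratio of 2 were called; the part of depth in this was not tested.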
